A study of Mus musculus with 38 samples.

Results

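The genes described here encode the protein core of the splicing machinery and the RNA-binding proteins that steer it. They were taken as every probe set that the platform annotation pairs with exactly 1 symbol starting with Snrp, Sf3a, Sf3b, Srsf or Hnrnp. This gave 139 of the 45101 probe sets of the deposited table, standing for 47 genes: 9 Snrp genes with 18 probe sets, 3 Sf3a genes with 8, 6 Sf3b genes with 22, 10 Srsf genes with 33 and 19 Hnrnp genes with 58. A further 16 probe sets that list such a gene beside another symbol were left out. RNA of whole bone marrow was measured in 38 mice, each on 1 Affymetrix array, after cryopreservation of the marrow cells. In 34 mice leukaemia had been started with a retrovirus carrying 1 of 5 fusions of the MLL gene, a histone methyltransferase gene broken in acute leukaemias. There were 7 MLL-ENL mice, 5 with MLL-AF9, 5 with MLL-GAS7, 8 with MLL-AF10 and 9 with MLL-AF1p. The virus was given to c-kit+ marrow progenitors, which were transplanted into C57BL/6 mice, male or female, after lethal irradiation, and marrow was taken when the leukaemic animals were euthanised. Normal marrow came from 4 wild-type C57BL/6 mice, male or female, for which the labels give no irradiation or transplant. The promoter that drove each oncogene is not given in the labels, and whole marrow holds leukaemic cells together with whatever host cells remained.

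Introns are removed by the spliceosome, which is built from small nuclear ribonucleoprotein particles (snRNPs). Snrp genes encode the Sm ring proteins that sit on each spliceosomal RNA and a few proteins of the U1 and U2 particles. The SF3a and SF3b complexes belong to the U2 particle, which recognises the branch point. SR proteins, encoded by the Srsf genes, generally promote the use of nearby exons, whereas many hnRNP proteins coat nascent RNA and can repress splice sites. Genes of this machinery, SF3B1 and SRSF2 among them, are recurrently mutated in human myeloid malignancies.

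All values below are log2(intensity + 46.1), shifted so that all arrays had the same median, and differences are on that scale, which understates changes of dim probe sets. A call means a limma p-value under 0.05 after Benjamini-Hochberg adjustment over all 45037 probe sets other than controls. For statements about a gene, its brightest probe set by the mean of the 38 arrays stood for it. No filter on low values was applied, so all 139 probe sets were tested, and 128 of them exceeded the median of their array on at least 4 arrays. Errors are standard errors (SE) of the fitted difference or SD between mice. Mice are named as in the labels, and single values are given in the order MLL-GAS7_406, MLL-GAS7_407, MLL-GAS7_405, MLL-GAS7_408 and MLL-GAS7_410, and MLL-AF9_307, MLL-AF9-308, MLL-AF9_301, MLL-AF9-305 and MLL-AF9-310.

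Some facts of the whole series bear on every result. Marrow composition differed between the groups. In leukaemia the erythroid markers fell in 8 of 8 measured genes, with group medians of their mean level between 6.67 and 6.91 against 12.95 in normal marrow. B cell markers fell in 9 of 9, T and NK cell markers in 6 of 6, megakaryocyte markers in 6 of 6, macrophage markers in 6 of 6, late neutrophil markers in 5 of 7 and stromal markers in 4 of 5. The mean level of the B cell markers was 9.84 to 11.02 in the normal samples and 7.09 to 8.75 in the leukaemias. Late neutrophil markers overlapped, at 13.34 to 14.14 in the normal samples and 9.57 to 13.77 in the leukaemias. Hoxa9, Hoxa10, Hoxa7, Hoxa5 and Meis1, which MLL fusions activate, rose in 5 of 5, and 9 of 13 mitosis genes fell. No marker was listed at 0. In such bulk RNA fewer cells of a type and less RNA per cell cannot be told apart, and the part of the changed composition in the results below was not tested. The actin control probe sets gave a 3' minus 5' difference of 0.07 to 0.22 in normal samples and 0.15 to 0.65 in leukaemias, which also was not tested against the results. The leukaemia arrays were divided by their values into 2 sets, which no label describes. Of 2723 probe sets with 2 groups of values, 19 shared this split and 6 the next most common one. Set 1 held 16 leukaemias and set 2 held 18. Normal samples were placed by their correlation with the difference between the sets. Samples 1 and 2 (0.175 and 0.436) went to set 1, samples 3 and 4 (-0.394 and -0.29) to set 2. This placing is uncertain, and the differences within a set given below depend on it. Of the 139 probe sets 11 differed between the sets, against 5.91% of all probe sets. The sets were read from the same values, so these counts do not test the split. The labels do not say whether the mice of a cohort received separately infected cells, so p-values measure only the spread between these mice.

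More of the 47 genes stood higher in leukaemia than lower, as did probe sets in general. Against normal marrow 15 genes rose and 0 fell (31.9% higher), where over all 18193 genes 20.0% rose and 9.72% fell. The median difference of the 47 genes was 0.29, that of all genes 0.13. Among the 139 probe sets 29 rose and 2 fell, against 15.6% higher, 8.83% lower and 24.4% called in either direction over all 45037. Splicing genes are bright on these arrays, and 124 of the 139 probe sets lay above the median brightness. Of those 124, 23.4% rose and 1 fell, where 27.4% of all probe sets above median brightness rose and 10.1% fell. The share of rises was therefore near that of all probe sets above median brightness, and the share of falls was lower. That background was not matched more closely in brightness. The split also moved with the scaling of the arrays. With the values as deposited 23 probe sets rose and 10 fell (12 and 2 by gene), where 11.5% of all probe sets rose and 12.2% fell. With quantile normalization 19 rose and 10 fell (8 and 2 by gene), where 13.3% of all probe sets rose and 10.8% fell. The share of rises under quantile normalization (13.7%) was thus near its background. The shift to equal medians had moved the median difference of all probe sets from -0.01 to 0.12, and that of the 139 from 0.08 to 0.21; with quantile normalization these medians were 0.06 and 0.04.

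**Figure D1:**
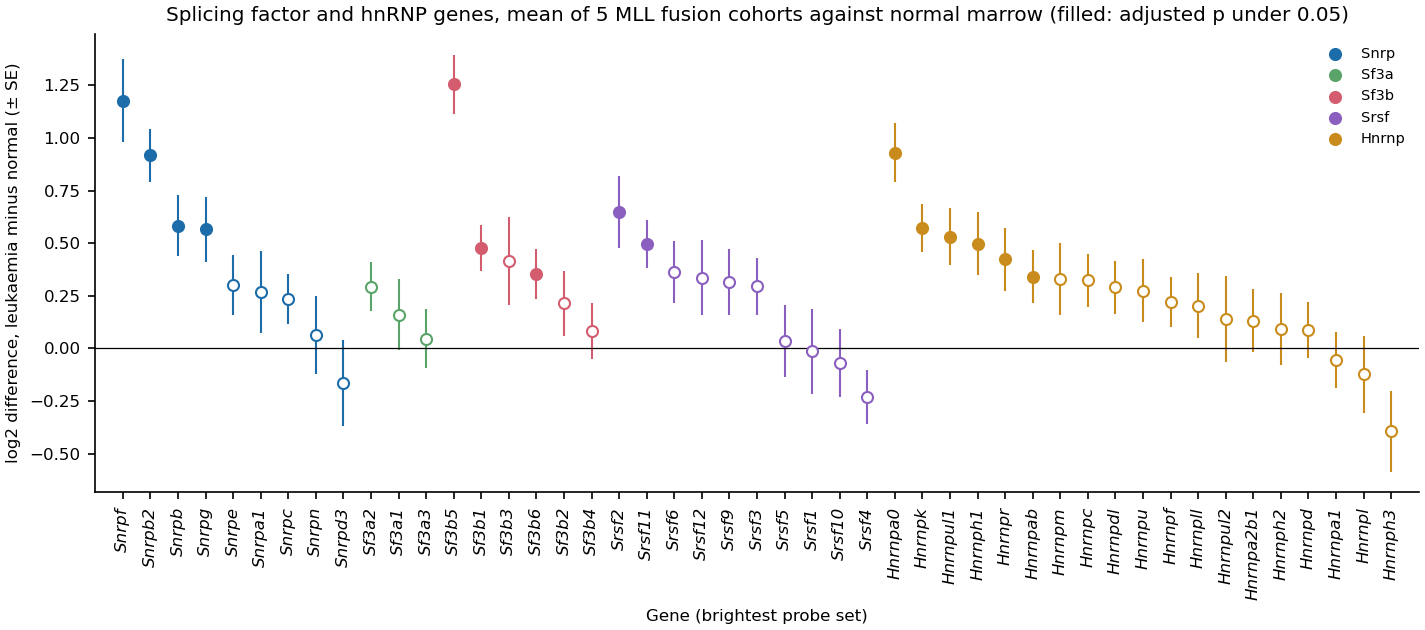
Log2 difference from normal marrow, averaged over the 5 cohorts, for each of the 47 genes, by family, with bars of 1 SE; filled points have an adjusted p under 0.05. The 15 filled points all lie above 0, led by Sf3b5 at 1.25, Snrpf at 1.18, Hnrnpa0 at 0.93 and Snrpb2 at 0.92, and Hnrnph3 at -0.39 is the lowest point.

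By family, 4 of 9 Snrp genes rose, 0 of 3 Sf3a genes, 3 of 6 Sf3b genes, 2 of 10 Srsf genes and 6 of 19 Hnrnp genes. These shares were 44.4%, 0%, 50%, 20% and 31.6%, against 20.0% of all genes. By probe set the shares were 44.4%, 0%, 22.7%, 21.2% and 15.5%, against 15.6% of all probe sets. The Srsf share by gene and the Hnrnp share by probe set were thus near their backgrounds. The family medians were 0.30, 0.16, 0.38, 0.31 and 0.28 in that order. The 4 Snrp rises were also called with the values as deposited and with quantile normalization, where the Snrp median was 0.17 and 0.11. The Hnrnp median, in contrast, was 0.15 and 0.00 under those 2 scalings, with 4 and then 1 gene higher and 1 lower in each. The 34 leukaemias all lay above the 4 normal samples in 7 of the 139 probe sets, against 2.44% of all probe sets, and all lay below them in 0, against 2.58%. These 7 were 4 Snrp probe sets (Snrpf, both bright probe sets of Snrpb2 and 1 of Snrpb) and 1 each of Sf3b5, Srsf11 and Hnrnpul1.

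The promoters of 4 genes that rose are shown as examples, chosen after their values were seen, of the sequence before their starts. Each has 1 entry in the RefSeq promoter table (mouse build GRCm38.p6). Each line holds the 250 bases before the start, 5' to 3' on the gene's strand. Capitals mark 3 textbook promoter motifs on either strand: the CCAAT box (CCAAT), the GC box (GGGCGG) and the core bound by ETS factors (CCGGAAG), whose letters do not overlap one another. The regions are chr10:93589659-93589908 on the minus strand for Snrpf, chr2:143062819-143063068 on the plus strand for Snrpb2, chr6:86371290-86371539 on the plus strand for Snrpg and chr13:58128557-58128806 on the minus strand for Hnrnpa0.
Snrpf: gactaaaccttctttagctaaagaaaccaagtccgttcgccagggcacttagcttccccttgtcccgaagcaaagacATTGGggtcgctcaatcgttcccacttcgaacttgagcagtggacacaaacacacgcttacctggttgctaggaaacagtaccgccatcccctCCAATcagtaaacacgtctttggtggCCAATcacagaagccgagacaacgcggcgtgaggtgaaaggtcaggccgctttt
Snrpb2: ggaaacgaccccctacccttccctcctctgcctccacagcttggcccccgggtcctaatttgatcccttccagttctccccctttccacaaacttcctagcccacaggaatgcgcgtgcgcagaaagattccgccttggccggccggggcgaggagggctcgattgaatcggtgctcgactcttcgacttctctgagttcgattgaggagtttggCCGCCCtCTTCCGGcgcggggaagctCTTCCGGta
Snrpg: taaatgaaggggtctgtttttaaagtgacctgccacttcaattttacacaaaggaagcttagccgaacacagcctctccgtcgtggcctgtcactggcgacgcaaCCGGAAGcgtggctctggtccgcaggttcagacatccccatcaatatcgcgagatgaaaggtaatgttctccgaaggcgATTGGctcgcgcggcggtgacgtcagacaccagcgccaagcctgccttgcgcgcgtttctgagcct
Hnrnpa0: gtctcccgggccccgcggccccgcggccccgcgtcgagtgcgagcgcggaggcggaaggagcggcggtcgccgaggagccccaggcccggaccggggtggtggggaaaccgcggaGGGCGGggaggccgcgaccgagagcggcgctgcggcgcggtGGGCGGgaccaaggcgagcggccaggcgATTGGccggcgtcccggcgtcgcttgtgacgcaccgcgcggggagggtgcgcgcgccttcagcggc
The 4 windows did not share a layout. Snrpf held 3 CCAAT boxes and no GC box or ETS core, Snrpb2 held 2 ETS cores close to the start and 1 GC box, Snrpg held 1 ETS core and 1 CCAAT box, and Hnrnpa0 held 2 GC boxes and 1 CCAAT box. Their G and C content was 52.0%, 60.8%, 55.6% and 81.2%. Of the 47 genes 42 had at least 1 promoter in the table. The GC box was present in 29 of these 42 genes (69.0%) against 35.4% of all 27025 genes with a promoter, the ETS core in 14 (33.3%) against 7.83%, and the CCAAT box in 21 (50.0%) against 37.5%. The E-box CACGTG was present in 2 (4.8%) against 6.86%, and TATAAA in 5 (11.9%) against 14.3%. Among the 13 risen genes with a promoter the GC box was found in 10, the ETS core in 4, the CCAAT box in 9, CACGTG in 0 and TATAAA in 1. These are matches of letters and no test of binding, and genes with several starts had more sequence to match. The background was every gene with a promoter and was not matched to these bright genes in expression.

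The Sm ring genes Snrpf, Snrpb and Snrpg rose, as did Snrpb2, which encodes the U2 particle protein B''. The Snrpf level was 10.38, 10.29, 10.44 and 10.22 in the 4 normal samples. In the leukaemias it was 10.90 to 12.21 in MLL-AF1p (median 11.49), 10.98 to 11.86 in MLL-AF10 (median 11.47) and 11.54 to 12.26 in MLL-ENL (median 11.91). It was 12.32, 11.03, 11.60, 11.03 and 11.12 in the MLL-GAS7 mice, and 11.37, 11.58, 11.79, 10.64 and 11.28 in the MLL-AF9 mice. The lowest leukaemia, MLL-AF9-305, lay above the highest normal sample, and the MLL-ENL mice lay close together at the top. The difference was 1.18 ± 0.20 (SE, 34 leukaemias against 4 normal samples; 2.26-fold; limma adjusted p = 1.25e-05), and 1.30 within array set 1 and 1.03 within set 2.

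Snrpb2 was 10.65, 11.02, 10.67 and 10.57 in normal samples 1 to 4 and at least 11.08 in every leukaemia. Its difference was 0.92 ± 0.12 (1.89-fold; limma adjusted p = 2.87e-07), a second bright probe set also gave 0.92, and a dim one gave 0.21 without passing. Snrpb rose by 0.58 ± 0.14 (adjusted p = 0.00214), and its other probe set, in which normal samples read 11.71 to 11.86 and leukaemias from 11.99 up, rose by 0.82. Snrpb and the neuronal form Snrpn encode close relatives, so transcripts of both could bind 1 probe set. The Snrpn probe set was dim, at 6.13 ± 0.42 (SD, n = 4) in normal marrow, with a difference of 0.06. Snrpg rose by 0.57 ± 0.15 (adjusted p = 0.00491), with both of its probe sets called. With quantile normalization Snrpb and Snrpg rose by 0.37 and 0.32. On the median-shifted scale the groups overlapped in Snrpg: normal samples lay at 12.55 to 12.83, and 31 of 34 leukaemias lay above them. Among the 3 others were MLL-AF9-305 at 12.77 and MLL-AF1p_801 at 12.48. The uncalled members were the Sm gene Snrpe at 0.30 (adjusted p = 0.128), the U2 gene Snrpa1 at 0.27, the U1 gene Snrpc at 0.24, Snrpn, and the Sm gene Snrpd3 at -0.16. A dimmer Snrpd3 probe set gave 0.72 (adjusted p = 0.00635), a call lost without normal sample 1 or 2, so the sign for Snrpd3 differed between probe sets.

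**Figure D2:**
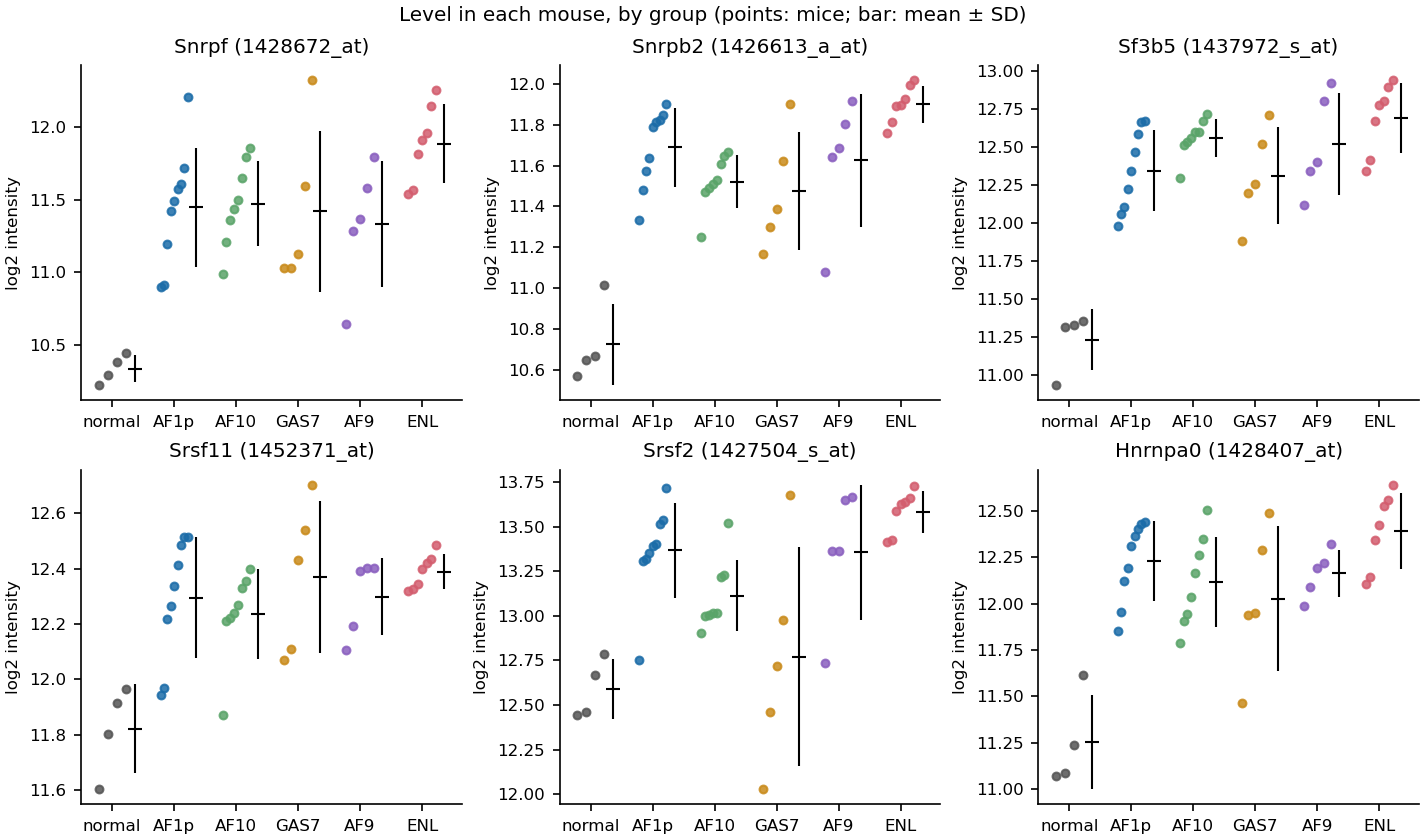
Level of 6 genes in each of the 38 mice (points), by group, with the group mean and SD (bar) on the log2 intensity scale, each panel with its own range. In Snrpf, Snrpb2 and Sf3b5 the 34 leukaemias lie above the 4 normal samples, in Srsf11 and Hnrnpa0 the groups touch, and in Srsf2 the MLL-GAS7 mice spread from 12.03 to 13.68.

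Sf3b5, the smallest subunit of the SF3b complex, had the largest difference of the 47 genes. Its brightest probe set was 11.33, 11.35, 11.31 and 10.93 in normal samples 1 to 4. The values were 11.98 to 12.68 in MLL-AF1p (median 12.34), 12.30 to 12.72 in MLL-AF10 (median 12.58) and 12.34 to 12.94 in MLL-ENL (median 12.78). They were 12.71, 11.88, 12.20, 12.26 and 12.52 in the MLL-GAS7 mice, and 12.40, 12.81, 12.34, 12.12 and 12.92 in the MLL-AF9 mice. No leukaemia overlapped the normal samples, and no cohort stood apart from the rest. The difference was 1.25 ± 0.14 (2.39-fold; limma adjusted p = 6.75e-09), with 1.16 within array set 1 and 1.33 within set 2. A second probe set gave 0.40 (adjusted p = 0.0933). Another, at 6.56 ± 0.16 (SD, n = 4) in normal marrow and above the array median on fewer than 4 arrays, gave -0.57 (adjusted p = 0.0455). Sf3b5 was the single gene with calls in opposite directions, and the call of the dim probe set was lost when any 1 of 24 arrays was left out.

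Sf3b1, the subunit that contacts the branch point and is mutated in myelodysplasia, rose by 0.48 ± 0.11 (1.39-fold; limma adjusted p = 0.000822), and by 0.24 with quantile normalization. Its normal values were 12.55, 12.67, 12.57 and 12.38, and 33 of 34 leukaemias lay above them; the exception was MLL-AF1p_801 at 12.51. The medians were 13.12 in MLL-AF1p, 13.05 in MLL-AF10 and 12.97 in MLL-ENL, the MLL-GAS7 mice lay between 12.85 and 13.23 and the MLL-AF9 mice between 13.02 and 13.16, so the cohorts were alike in level. A second Sf3b1 probe set rose by 0.64, and the other 2, which both differed between the array sets, gave 0.34 and -0.30. Sf3b6, the subunit known as p14, rose by 0.35 ± 0.12 (adjusted p = 0.0266). That call was lost without any 1 of the normal samples (differences of 0.33 to 0.38, adjusted p of 0.0513 to 0.0951), as deposited (0.22) and with quantile normalization (0.17). The other SF3b subunits Sf3b3, Sf3b2 and Sf3b4 gave 0.42, 0.21 and 0.08 and were not called, though a dimmer Sf3b3 probe set rose by 0.49. Of the SF3a subunits Sf3a2 gave 0.29 (adjusted p = 0.0573), Sf3a1 0.16 and Sf3a3 0.05. Sf3a2 was narrow in normal marrow, at 12.18 ± 0.05 (SD, n = 4), with 32 of 34 leukaemias above it, and it was called in 8 of 14 other settings run. A dimmer Sf3a1 probe set fell by 0.47 (adjusted p = 0.0367), a call lost without normal sample 1, 2 or 4.

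Of the 10 SR protein genes Srsf2 and Srsf11 rose. Srsf2, which promotes exon inclusion and is mutated in myeloid neoplasms, was 12.79, 12.67, 12.44 and 12.46 in normal samples 1 to 4. It was 12.75 to 13.72 in MLL-AF1p (median 13.39), 12.90 to 13.52 in MLL-AF10 (median 13.02) and 13.41 to 13.73 in MLL-ENL (median 13.63). It was 13.68, 12.46, 12.97, 12.72 and 12.03 in the MLL-GAS7 mice, and 13.37, 13.67, 13.65, 12.73 and 13.37 in the MLL-AF9 mice. The MLL-ENL mice were high and close together, the MLL-GAS7 mice straddled the normal range, and 29 of 34 leukaemias lay above all normal samples. The difference was 0.65 ± 0.17 (1.57-fold; limma adjusted p = 0.00346), with 0.64 within array set 1 and 0.66 within set 2, and 0.40 with an adjusted p of 0.0561 under quantile normalization. The other 3 Srsf2 probe sets gave 0.31, -0.04 and -0.42 and were not called.

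Srsf11, an SR-related protein, rose by 0.50 ± 0.11 (limma adjusted p = 0.000971), and by 0.30 with quantile normalization. Normal samples read 11.97, 11.92, 11.60 and 11.80, MLL-AF1p 11.95 to 12.52, MLL-AF10 11.87 to 12.40 and MLL-ENL 12.32 to 12.48. The MLL-GAS7 mice lay between 12.07 and 12.70 and the MLL-AF9 mice between 12.11 and 12.40, so that 2 leukaemias, of MLL-AF1p and MLL-AF10, reached into the normal range. A dimmer Srsf11 probe set rose by 0.87 with all leukaemias above normal, and the other 2 gave 0.21 and 0.05. Srsf6 showed the reverse order: its brightest probe set gave 0.36 and just missed the threshold (adjusted p = 0.0655), whereas its other 3 rose by 0.51 to 0.59. The remaining SR genes, by the probe set that stands for each, were Srsf12 at 0.34 (a dim probe set), Srsf9 at 0.32, Srsf3 at 0.30, Srsf5 at 0.04, Srsf1 at -0.01, Srsf10 at -0.07 and Srsf4 at -0.23. Srsf4 was called lower with the values as deposited and with quantile normalization. Srsf5 differed between the array sets, with -0.43 within set 1 and 0.50 (adjusted p = 0.0234) within set 2.

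Of the 19 hnRNP genes 6 rose: Hnrnpa0, Hnrnpk, Hnrnpul1, Hnrnph1, Hnrnpr and Hnrnpab. Hnrnpa0, an AU-rich element binding protein, was 11.62, 11.24, 11.09 and 11.07 in normal samples 1 to 4. It was 11.85 to 12.44 in MLL-AF1p (median 12.31), 11.79 to 12.50 in MLL-AF10 (median 12.10) and 12.10 to 12.64 in MLL-ENL (median 12.42). It was 12.49, 11.47, 12.29, 11.95 and 11.94 in the MLL-GAS7 mice, and 12.22, 12.19, 12.32, 11.99 and 12.09 in the MLL-AF9 mice. A single leukaemia, MLL-GAS7_407, lay below the highest normal sample. The difference was 0.93 ± 0.14 (1.91-fold; limma adjusted p = 2.13e-06), with 0.69 within array set 1 and 1.14 within set 2.

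Hnrnpk, a KH-domain protein that binds C-rich RNA, rose by 0.57 ± 0.12 (limma adjusted p = 0.000229), with 33 of 34 leukaemias above the normal samples, which spread from 12.71 to 13.40. Its other 3 probe sets, at 0.24, 0.16 and -0.05, were not called. Hnrnpul1, related to the scaffold protein hnRNP U, rose by 0.53 ± 0.13 (adjusted p = 0.00256); normal samples lay at 12.30 to 12.49 and all 34 leukaemias above them, from 12.50 up. Hnrnph1, which binds G-rich runs, rose by 0.50 ± 0.15 (adjusted p = 0.0121), a call lost without normal sample 3 or 4 (0.43 and 0.44, adjusted p of 0.0717 to 0.0759). With quantile normalization 1 of the 6 hnRNP rises, Hnrnpa0, was called. Hnrnpk was then at 0.28, Hnrnpul1 at 0.30, Hnrnph1 at 0.26 and Hnrnpr at 0.23. Hnrnpr rose by 0.42 (adjusted p = 0.0356), lost without normal sample 1, 3 or 4 (differences of 0.32 to 0.44) and with the values as deposited (0.29). Hnrnpab rose by 0.34 (adjusted p = 0.0432), lost without any 1 normal sample or without MLL-AF9_301 or MLL-AF9-308 (0.29 to 0.38, adjusted p of 0.0525 to 0.163). It was also lost as deposited (0.21, adjusted p = 0.204) and under quantile normalization (0.05, adjusted p = 0.809). Another Hnrnpab probe set had the largest difference of the 139, at 1.64 ± 0.35 (3.11-fold; adjusted p = 0.00049). Its normal values were 10.12, 10.94, 9.996 and 10.07. Its MLL-GAS7 values ran from 10.33 in MLL-GAS7_408 to 13.82 in MLL-GAS7_410 and its MLL-AF1p values from 11.41 to 13.24. The other 6 Hnrnpab probe sets gave 0.04 to 0.34.

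The hnRNP genes that were not called, by the probe set that stands for each, were Hnrnpm at 0.33, Hnrnpc at 0.32, Hnrnpdl at 0.29, Hnrnpu at 0.28, Hnrnpf at 0.22, Hnrnpll at 0.20, Hnrnpul2 at 0.14, Hnrnpa2b1 at 0.13, Hnrnph2 at 0.09 and Hnrnpd at 0.09. Below 0 were Hnrnpa1 at -0.06, Hnrnpl at -0.12 and Hnrnph3 at -0.39. Hnrnpa1 and Hnrnpa2b1, the abundant repressors of exon inclusion, were thus among those without a call, and the sign of Hnrnpa1 changed between its probe sets. Hnrnph3 (adjusted p = 0.142) was below all normal samples in 27 of 34 leukaemias and was called lower with the values as deposited and with quantile normalization. Hnrnpf, called in 1 of its 4 probe sets (0.57, adjusted p = 0.00444), and Hnrnpul2, whose probe sets gave 0.14 and -0.59 and which differed between the array sets, show how far probe sets of a gene could part.

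Of the 15 genes that rose, 3 (Snrpf, Snrpb2 and Sf3b5) were called in every setting that kept the probe set standing for them. A total of 8, with Snrpb, Snrpg, Sf3b1, Srsf11 and Hnrnpa0 added, were called in every such setting except within an array set, where 2 normal samples remain. The setting without probe sets that may read several genes did not hold those standing for Snrpb2, Sf3b5, Snrpb and Snrpg. Within set 1 the fit called 3 of the 47 genes and within set 2 it called 12. By probe set 7.91% and 15.8% of the 139 rose there, against 5.58% and 11.5% of all probe sets. The 15 genes had differences above 0 in both sets, but they were chosen on the same arrays, so this was nearly fixed in advance.

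The 5 comparisons of single cohorts with normal marrow share their 4 control samples. In MLL-ENL 43 of the 139 probe sets rose and 1 fell (all probe sets: 15.8% and 7.37%), and in MLL-AF1p 28 rose and 2 fell (12.8% and 8.04%). The counts were 24 and 4 for MLL-AF10 (13.4% and 7.90%), 19 and 0 for MLL-AF9 (11.3% and 6.36%), and 13 and 0 for MLL-GAS7 (8.13% and 6.52%). By gene, and in the same order of cohorts, 22, 12, 12, 11 and 6 of 47 rose and 0 fell in each. Over all genes 20.8%, 16.3%, 16.5%, 15.0% and 10.5% rose and 8.28%, 9.01%, 8.87%, 7.07% and 7.49% fell, so the share of rises in MLL-GAS7 (12.8%) was near its background. Of the member probe sets above median brightness 33.9%, 22.6%, 19.4%, 15.3% and 10.5% rose. Of all probe sets above median brightness 28.1%, 22.5%, 23.8%, 20.3% and 14.1% rose. Against that background MLL-ENL had a larger share, MLL-AF1p a like share and the others a smaller share. The median difference of the 47 genes was 0.42, 0.27, 0.29, 0.27 and 0.13, against 0.18, 0.12, 0.12, 0.15 and 0.10 for all genes. Counted as probe sets called in either direction, MLL-ENL had 44, MLL-AF10 28 and MLL-GAS7 13. Without normal sample 3 this MLL-ENL count was 28, and without normal sample 4 the MLL-AF10 count was 18. With the values as deposited the MLL-ENL count was 26, and with quantile normalization it was 22 and the MLL-GAS7 count 21. The shares over all probe sets were not worked out for single cohorts in these settings.

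The 6 genes called higher in all 5 cohorts were Snrpf, Snrpb2, Sf3b5, Sf3b1, Srsf11 and Hnrnpa0. In the order used above, Snrpf rose by 1.55, 1.11, 1.14, 0.998 and 1.09. Sf3b1 was even across cohorts, at 0.42, 0.48, 0.48, 0.56 and 0.45, as was Srsf11 at 0.57, 0.47, 0.42, 0.48 and 0.55. Hnrnpa0 gave 1.14, 0.97, 0.86, 0.91 and 0.77. Srsf2 was called in MLL-AF1p (0.78), MLL-AF9 (0.77) and MLL-ENL (0.99), and gave 0.52 in MLL-AF10 and 0.18 in MLL-GAS7. Several genes were called in MLL-ENL and not in the mean of the cohorts: the Sm gene Snrpe (0.52), the SF3a gene Sf3a2 (0.39), the SR genes Srsf6 (0.55), Srsf12 (0.57) and Srsf3 (0.46), and Hnrnpm (0.62) and Hnrnpc (0.53). Sf3b3 was called in MLL-AF10 alone among these comparisons (0.81), and Hnrnpdl in MLL-AF1p (0.40). A call against normal in 1 cohort does not show that the cohort differs from the others, which the next comparison tests.

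**Figure D3:**
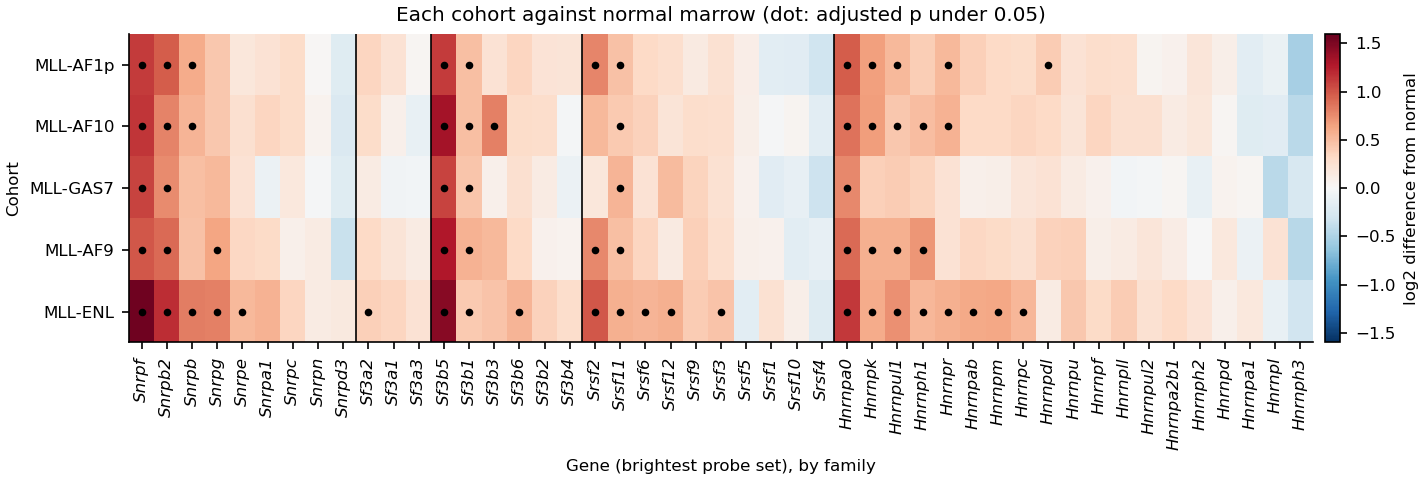
Log2 difference of each cohort from the 4 normal samples for the 47 genes, in colour from -1.6 to 1.6, with families separated by lines; a dot marks an adjusted p under 0.05. Snrpf, Snrpb2, Sf3b5, Sf3b1, Srsf11 and Hnrnpa0 are dotted in all 5 rows, MLL-ENL has 22 dots and MLL-GAS7 has 6.

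Few differences between the cohorts passed the threshold in these genes. The F test among the 5 cohorts called 2 of 139 probe sets, where 3.33% of all probe sets were called; 30 of the 139 (21.6%) had an unadjusted p under 0.05, against 17.2% of all probe sets. The 2 were the brightest Srsf2 probe set (adjusted p = 0.043), with the values given above, and the dimmest Hnrnpr probe set (adjusted p = 0.0262). The latter had means of 7.14 ± 0.37 (SD, n = 8) in MLL-AF10, 6.93 ± 0.30 (n = 9) in MLL-AF1p, 6.75 ± 0.31 (n = 7) in MLL-ENL, 6.36 ± 0.75 (n = 5) in MLL-GAS7 and 6.15 ± 0.39 (n = 5) in MLL-AF9, on a probe set above the array median on fewer than 4 arrays. Without MLL-GAS7_406 the F test called 11, and without MLL-AF9_301 or MLL-AF9-310 it called 0. The shares over all probe sets were not worked out for these fits.

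Against the mean of the other 4 cohorts, MLL-ENL was higher in 3 probe sets and lower in 0 (all probe sets: 1.58% called), MLL-GAS7 was lower in 1 and higher in 0 (1.87%), and MLL-AF1p (0.666%), MLL-AF10 (0.240%) and MLL-AF9 (0.211%) had 0 calls. At an unadjusted p under 0.05 there were 46 of 139 probe sets in MLL-ENL (33.1%, against 15.0% of all probe sets), 19 in MLL-GAS7 (13.7% against 13.6%), 17 in MLL-AF10 (12.2%, against 4504 of all 45037), 6 in MLL-AF1p (4.32% against 9.87%) and 3 in MLL-AF9 (2.16% against 6.67%). Above median brightness these shares were 36.3% in MLL-ENL and 15.3% in MLL-GAS7, against 23.5% and 17.9% of all such probe sets. They were 11.3%, 3.23% and 1.61% in MLL-AF10, MLL-AF1p and MLL-AF9, against 12.6%, 12.6% and 7.37%. The MLL-ENL calls were 2 probe sets of Srsf3, an SR protein that also takes part in mRNA export, at 0.52 ± 0.14 (limma adjusted p = 0.047) and 0.59 ± 0.16 (adjusted p = 0.0407), and 1 of Sf3b6 at 0.40 ± 0.11 (adjusted p = 0.048). In the first Srsf3 probe set the MLL-ENL mice lay between 9.05 and 9.29, with a mean of 9.19 ± 0.08 (SD, n = 7). The MLL-AF1p mice lay between 8.07 and 9.14, the MLL-AF10 mice between 8.26 and 9.23 and the MLL-AF9 mice between 8.44 and 8.75. The MLL-GAS7 mice read 9.59, 8.05, 8.89, 8.57 and 8.87, so MLL-GAS7_406 was above every MLL-ENL mouse. The normal samples read 9.15, 9.13, 8.37 and 8.73, within the range of the leukaemias. The MLL-GAS7 call was Srsf2 at -0.58 ± 0.16 (adjusted p = 0.0375).

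None of these 4 calls was stable to single mice. The 3 MLL-ENL calls were lost when any 1 of 25, 12 and 25 arrays was left out (adjusted p up to 0.101, 0.101 and 0.125), although their differences stayed at 0.47 to 0.54, 0.57 to 0.61 and 0.36 to 0.41. The Srsf2 call was lost without MLL-GAS7_407, MLL-GAS7_408, MLL-GAS7_410, MLL-AF9_301 or MLL-AF9-308 (differences of -0.57 to -0.40). Without MLL-GAS7_406 there were 15 calls in MLL-ENL and 7 in MLL-GAS7, with the shares over all probe sets not worked out for that fit. As a description, the median difference of the 139 probe sets from the other cohorts was 0.19 in MLL-ENL (all probe sets 0.05) and -0.15 in MLL-GAS7 (all probe sets -0.05). With the values as deposited these medians were 0.09 and -0.06, where all probe sets gave -0.04 and 0.04. With quantile normalization they were 0.08 and -0.03, where all probe sets gave 0.004 and 0.001. The 5 arrays with the brightest hybridisation controls were MLL-GAS7_410, MLL-GAS7_407, MLL-AF10_798A, MLL-AF1p_803 and normal sample 3. Without these the Snrp, Srsf and Hnrnp probe sets had medians of 0.00, 0.06 and 0.00 in MLL-GAS7 against the other cohorts, compared with -0.11, -0.16 and -0.16 with them. The MLL-ENL medians without them were 0.22, 0.15 and 0.10. Over all probe sets the medians without them were -0.01 in MLL-GAS7 and 0.04 in MLL-ENL. Marker lists had medians away from 0 in the same comparisons, with few calls. The median of 7 late neutrophil markers was -1.09 in MLL-ENL (1 called lower) and 0.84 in MLL-GAS7 (1 called higher) against the other cohorts. That of the 5 HoxA and Meis1 genes was 0.34 (0 called) and -1.07 (3 called lower). The part of these markers in the result was not tested.

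The level of a family in a mouse was taken as the mean deviation of its genes from their 38-mouse means. The Snrp level was -0.53 to -0.32 in the normal samples and 0.18 to 0.37 in the MLL-ENL mice, with no overlap. It ran from -0.53 to 0.40 in MLL-GAS7, -0.49 to 0.22 in MLL-AF9, -0.41 to 0.34 in MLL-AF1p and -0.21 to 0.16 in MLL-AF10. The SD was 0.06 in MLL-ENL (n = 7) and 0.34 in MLL-GAS7 (n = 5). MLL-GAS7_407 was lowest of its cohort and MLL-GAS7_406 highest in each of the 5 families, and MLL-AF9-305 was lowest of its cohort in each. MLL-AF1p_801 was lowest of its cohort in 4 of 5. The arrays of MLL-AF1p_801 and MLL-GAS7_407 had the highest median intensities as deposited, 208.3 and 206.8 in a series range of 129.2 to 208.3, and were thus shifted down most. The part of that shift in these levels was not tested. The Hnrnp level was -0.36 to -0.15 in the normal samples, with MLL-GAS7_407 at -0.43 and MLL-AF1p_801 at -0.39 below all of them, and it lay at 0.06 to 0.27 in MLL-ENL. These levels are a description of the chosen genes, without a test.

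**Figure D4:**
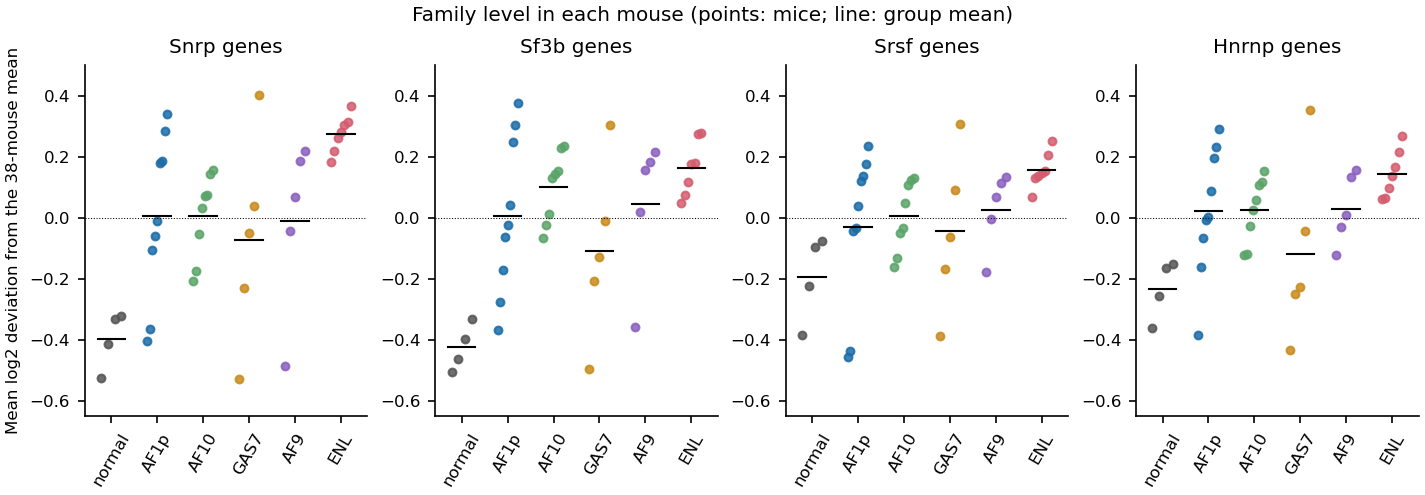
Mean log2 deviation of the Snrp, Sf3b, Srsf and Hnrnp genes from their mean over all 38 mice, for each mouse (points) and group (line: mean). The 7 MLL-ENL mice lie close together and above 0 in each panel, the 4 normal samples lie below 0, and the MLL-GAS7 mice spread from below 0 to above 0.

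Probe sets of 1 gene often gave different answers. Of the 35 genes with several probe sets 20 had both signs in leukaemia against normal, and the range within a gene had a median of 0.53 and exceeded 0.5 in 19 genes. In 16 genes a called and an uncalled probe set stood side by side, 17 had no call, and 2 (Snrpb and Snrpg) were called in every probe set. Srsf1, which encodes the founding SR protein, had 7 probe sets from -0.50 to 0.11, none called, and Hnrnpdl had 7 from -0.05 to 0.37, none called. The Srsf10 probe sets all lay below 0, from -0.62 to -0.07, and none was called. Probe sets whose ID ends in _a_at, _s_at or _x_at may read several transcripts or genes. Without them 23 of the 47 genes were left, of which 6 rose and 0 fell.

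**Figure D5:**
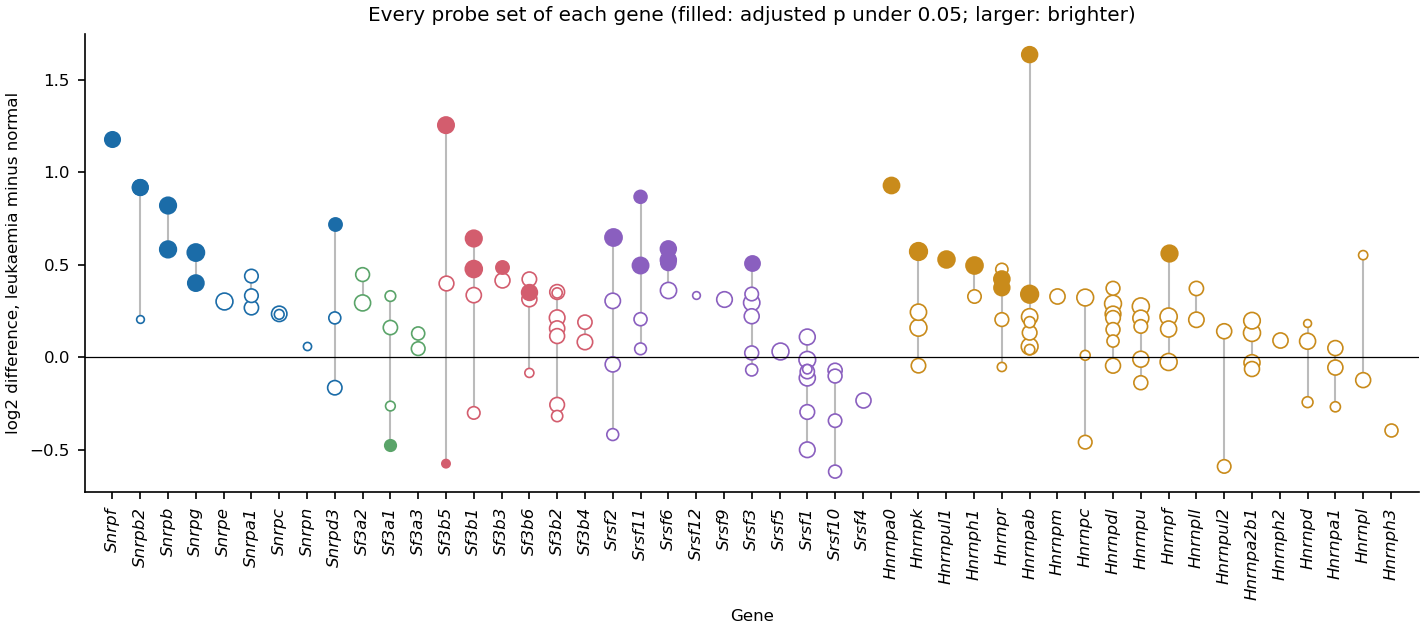
Log2 difference between leukaemia and normal marrow for all 139 probe sets, 1 column per gene, with larger symbols for brighter probe sets and filled symbols for an adjusted p under 0.05. The 2 filled symbols below 0 are dim probe sets of Sf3a1 and Sf3b5, and the highest symbol is a Hnrnpab probe set at 1.64.

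Other genes of the pathway were examined from lists of named proteins. Of the Lsm proteins, relatives of the Sm ring, 3 of 9 rose and 0 fell: Lsm1, which acts in mRNA decay, by 0.87, Lsm10 of the U7 particle by 0.53 and Lsm6 by 0.46. Of 7 snRNP proteins named Snrnp none was called (median 0.09, 0 higher and 0 lower in limma). Of 10 factors of the 3' splice site 2 rose and 0 fell, the helicase Dhx15 by 0.53 and the branch point binding protein Sf1 by 0.33. Of 33 genes of the Prp, tri-snRNP and Prp-associated proteins 8 rose and 1 fell, with Cwc15 at 0.94, Prpf31 at 0.83 and the ubiquitin ligase Prpf19 at 0.71. Of 20 SR-related proteins and SR kinases 9 rose and 0 fell, with Srek1 at 0.91, Rbm39 at 0.78 and Luc7l at 0.76. Of 17 hnRNP proteins under other symbols 8 rose and 0 fell, with the cold-inducible protein Cirbp at 1.20, Pcbp4 at 1.14 and Ewsr1 at 1.03. Of 16 other regulators of alternative splicing 5 rose and 1 fell: Mbnl1 rose by 1.09, Khdrbs1 by 0.98 and Celf2 by 0.91, and Celf1 differed by -0.65. Of 14 genes for snRNP assembly, the pathway that loads Sm rings onto RNA, 6 rose and 1 fell, with Smn1 at 0.97, the snRNA export adaptor Phax at 0.85 and the arginine methyltransferase Prmt5 at 0.82. Of 10 exon junction and nonsense-mediated decay genes 0 rose and 2 fell, Smg5 at -0.54 and Upf2 at -0.41. These counts stand beside 20.0% higher and 9.72% lower over all genes, and the lists were chosen with earlier results known.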

How the data were processed

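Values were linear intensities deposited by the authors, already scaled: leaving out the top and bottom 2%, each array averaged 500. Their software was not given in the sources used here. Depth has no meaning for arrays, so the number of mice limits the precision. Intensities were taken as log2(intensity + 46.1), the 25th percentile of all values. Array medians spanned 0.537, above a limit of 0.5, so arrays were shifted to 1 median. One limma 3.58.1 model (R 4.3.3) with 6 group means and 32 residual degrees of freedom gave 2-sided moderated tests: leukaemia (cohorts weighted equally) against normal, single cohorts against normal, an F test among cohorts, and single cohorts against the average of the other 4. P-values were adjusted over 45037 probe sets (64 controls left out). The fit was tested on simulated data. The 139 probe sets matched RefSeq by Entrez identifier, with 0 symbols changed. Named were all Snrp, Sf3a and Sf3b genes, up to 8 rises and 8 falls called among Srsf and Hnrnp genes with the uncalled ones by value, members called among cohorts, and up to 3 called genes of each other list. Members and lists were chosen with earlier results of these data known.

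The alternatives were values as deposited, quantile normalization, other pseudocounts, filters, array weights, a trended robust variance, 1 probe set per gene, no probe sets that may read several genes, the array sets as a term and singly, and each array left out.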

Additional observations from a re-analysis of the deposited data

Results flagged for a closer look

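Over the 47 genes and 6 family levels, 318 groups of 4 to 9 mice were searched for a single mouse far from its group, by the share of the group's range that separates it from the nearest other mouse. This marked 16 groups (5.03%), and chance alone marks about 1 in 20. MLL-AF9-305 was low in 5 genes, with gaps of 0.835 of the range in Hnrnpa2b1, 0.793 in Snrpg, 0.718 in Snrpb, 0.714 in Sf3b3 and 0.714 in Sf3b6. MLL-AF1p_803 was low in Srsf2 (0.575) and Sf3a3 (0.532), and it was 1 of the 5 arrays with the brightest hybridisation controls, as was MLL-AF10_798A, which was low in Srsf11 (0.642) and high in the dim Snrpn (0.62). MLL-ENL_702 was low in Hnrnph3 (0.575) and high in Srsf10 (0.724). Single cases were MLL-GAS7_406, high in Hnrnpul1 (0.718), MLL-AF10_797A, low in Snrpe (0.687), and MLL-AF10_805A, low in Snrpb2 (0.531). Among the normal samples, sample 4 was low in Sf3b5 (0.916) and sample 1 was high in Srsf4 (0.846).

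Differences between cohorts that passed their own test were the dimmest Hnrnpr probe set (F test in limma, adjusted p = 0.0262), the brightest Srsf2 probe set (F test, adjusted p = 0.043, and MLL-GAS7 against the other 4, adjusted p = 0.0375), and in MLL-ENL against the other 4 the 2 Srsf3 probe sets (adjusted p = 0.0407 and 0.047) and the Sf3b6 probe set (adjusted p = 0.048).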

How the results depend on the processing

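No call of a named gene changed sign in any of 15 other settings or in 38 fits that each left out 1 array. Over 67 gene results 208 of 3491 values no longer passed the threshold and 44 newly passed it. Only results called in the main fit could lose a call and only the others could gain one, so 3491 is not the base of either count.

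Leukaemia against normal had 31 calls among the 139 probe sets. With 1 probe set per gene it had 17 among 47, and within array set 1 it had 13 among 139. Without probe sets that may read several genes it had 13 among 72. The shares of members that rose were 36.2%, 7.91% and 18.1% in these settings. Over all probe sets tested there 21%, 5.58% and 13.1% rose. Leaving out single arrays gave 24 to 38. The 5 cohorts against normal had 134 calls together, and 66, 31 and 60 in those settings, with 80 within set 2. Leaving out single arrays gave 97 to 151.

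The F test among cohorts had 2 calls. It had 1 with 1 probe set per gene, with the filter on 4 arrays, with a pseudocount of 1 and without probe sets that may read several genes. It had 4 as deposited, 5 with array weights and 0 within set 1 and within set 2. Leaving out single arrays gave 0 to 11.

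Each cohort against the other 4 had 4 calls in all. The total was 1 with 1 probe set per gene and 1 without the 5 arrays with bright hybridisation controls, a setting added after the data were seen. It was 7 with the filter on 4 arrays, 15 with the filter on mean brightness, 11 with array weights and 8 with a pseudocount at the median. It was 0 with a pseudocount of 1, without probe sets that may read several genes, and within set 1 and set 2. Leaving out single arrays gave 1 to 23, the highest without MLL-GAS7_406. The cause of these shifts was not tested beyond the smaller number of probe sets or samples that some settings leave. For the F test and for single cohorts, the share of all probe sets called was not worked out in these settings. A change in these counts therefore cannot be told apart from a change over all probe sets.

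No paired analysis was possible because the groups share fewer than 2 mouse labels (the nearest are MLL-AF1p_805 and MLL-AF10_805A). The array sets were read from the values, so their assignment of normal samples is uncertain. With array set as a term and all normal samples placed in set 2, also added later, leukaemia against normal had 27 calls.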
